A study of Mus musculus with 20 samples.

Results

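The motile cilium axoneme genes were described in lung RNA of rats with and without bleomycin injury. A gene was a member when its row was protein-coding, its symbol began with Cfap, Dnah, Dnai, Dnaaf, Drc, Rsph, Tekt or Spag, and its level reached 0.5 FPKM (fragments per kilobase of transcript per M fragments, M for mega) in at least 5 of 20 libraries. Of 23799 genes in the table, 99 carried one of these prefixes and 98 of those were protein-coding. The rule kept 91 members, which were 44 Cfap, 11 Dnah, 5 Dnai, 9 Dnaaf, 3 Drc, 6 Rsph, 6 Tekt and 7 Spag genes. All 20 libraries reached the limit for 86 members, and 5 members reached it in fewer. Just inside the limit lay Dnah14, whose fifth-highest library stood at 0.586 FPKM, and Cfap47 at 1.25 FPKM. Just outside lay Spag4 at 0.338 FPKM and Cfap68 at 0.143 FPKM, and the other prefixed coding genes below the limit were Dnah8, Dnah17, Spag6, Rsph6a and Spag11b.

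Whole lung RNA came from 20 Sprague Dawley rats, an outbred laboratory stock, in 4 groups of 5 animals, with 1 poly-A library per animal. The groups were sham males, males with bleomycin-induced acute lung injury, sham females and females with the same injury, and the animals belonged to a cohort matched on body weight. No genotype other than the stock is named, and age, bleomycin dose, route and time of collection are not given in the sources used here. The organism field of the labels names mouse, while the stock, the aligned genome and the gene identifiers are those of rat. The comparisons ask which of the cilium genes differ between injured and sham lungs, and whether the answer differs between the sexes.

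The axoneme is the microtubule core of a cilium. In a motile cilium it is a ring of doublet microtubules around a central pair, and dynein arms on the doublets slide them past each other to make the cilium beat. Radial spokes, the nexin-dynein regulatory complex and the central apparatus coordinate the arms, filaments inside the doublets brace them, and cytoplasmic assembly factors build the arms before they enter the cilium. In the lung these genes are expressed in the multiciliated cells that line the airways and move mucus, so in whole lung RNA fewer ciliated cells and less RNA per ciliated cell cannot be told apart.

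Library totals ran from 68.6 to 87.5 M deposited counts, of which mitochondrial transcripts took 4.42 to 9.56%. Members took 0.244 to 0.769% of all counts. The ciliated cell marker Tppp3, a tubulin-binding protein, was present in every library, with ranges of 468 to 787 FPKM (sham males), 234 to 826 FPKM (males given bleomycin), 629 to 869.5 FPKM (sham females) and 326 to 441 FPKM (females given bleomycin). All 11 ciliated cell markers found in the table passed the expression filter, and Foxj1, the transcription factor that switches on motile cilium genes, was not analysed here. Alb, the liver's secreted albumin, stood at 50 FPKM or more in sham males 3 and 5, bleomycin males 2 and 5 and sham female 1.

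With both sexes averaged, bleomycin lungs were lower than sham lungs for 26 of the 91 members and higher for 5 at an adjusted p under 0.05 (edgeR's quasi-likelihood test, Benjamini-Hochberg adjustment over 15875 genes). Of all genes tested, 21.0% fell and 24.2% rose, beside 28.57% and 5.49% of the members. With library totals as the scaling 18 of 91 members fell, a share near the 17.3% of all genes in that fit. The median log2 fold change was -0.35 over the members and 0.02 over all genes tested, and 78 of 91 members had a negative value against 47.69% of all genes. When a log2 fold change of 1 or more was required too, the labels' second limit, 2 members passed, Spag5 and Tekt5, against 8.95% of all genes.

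**Figure D1:**
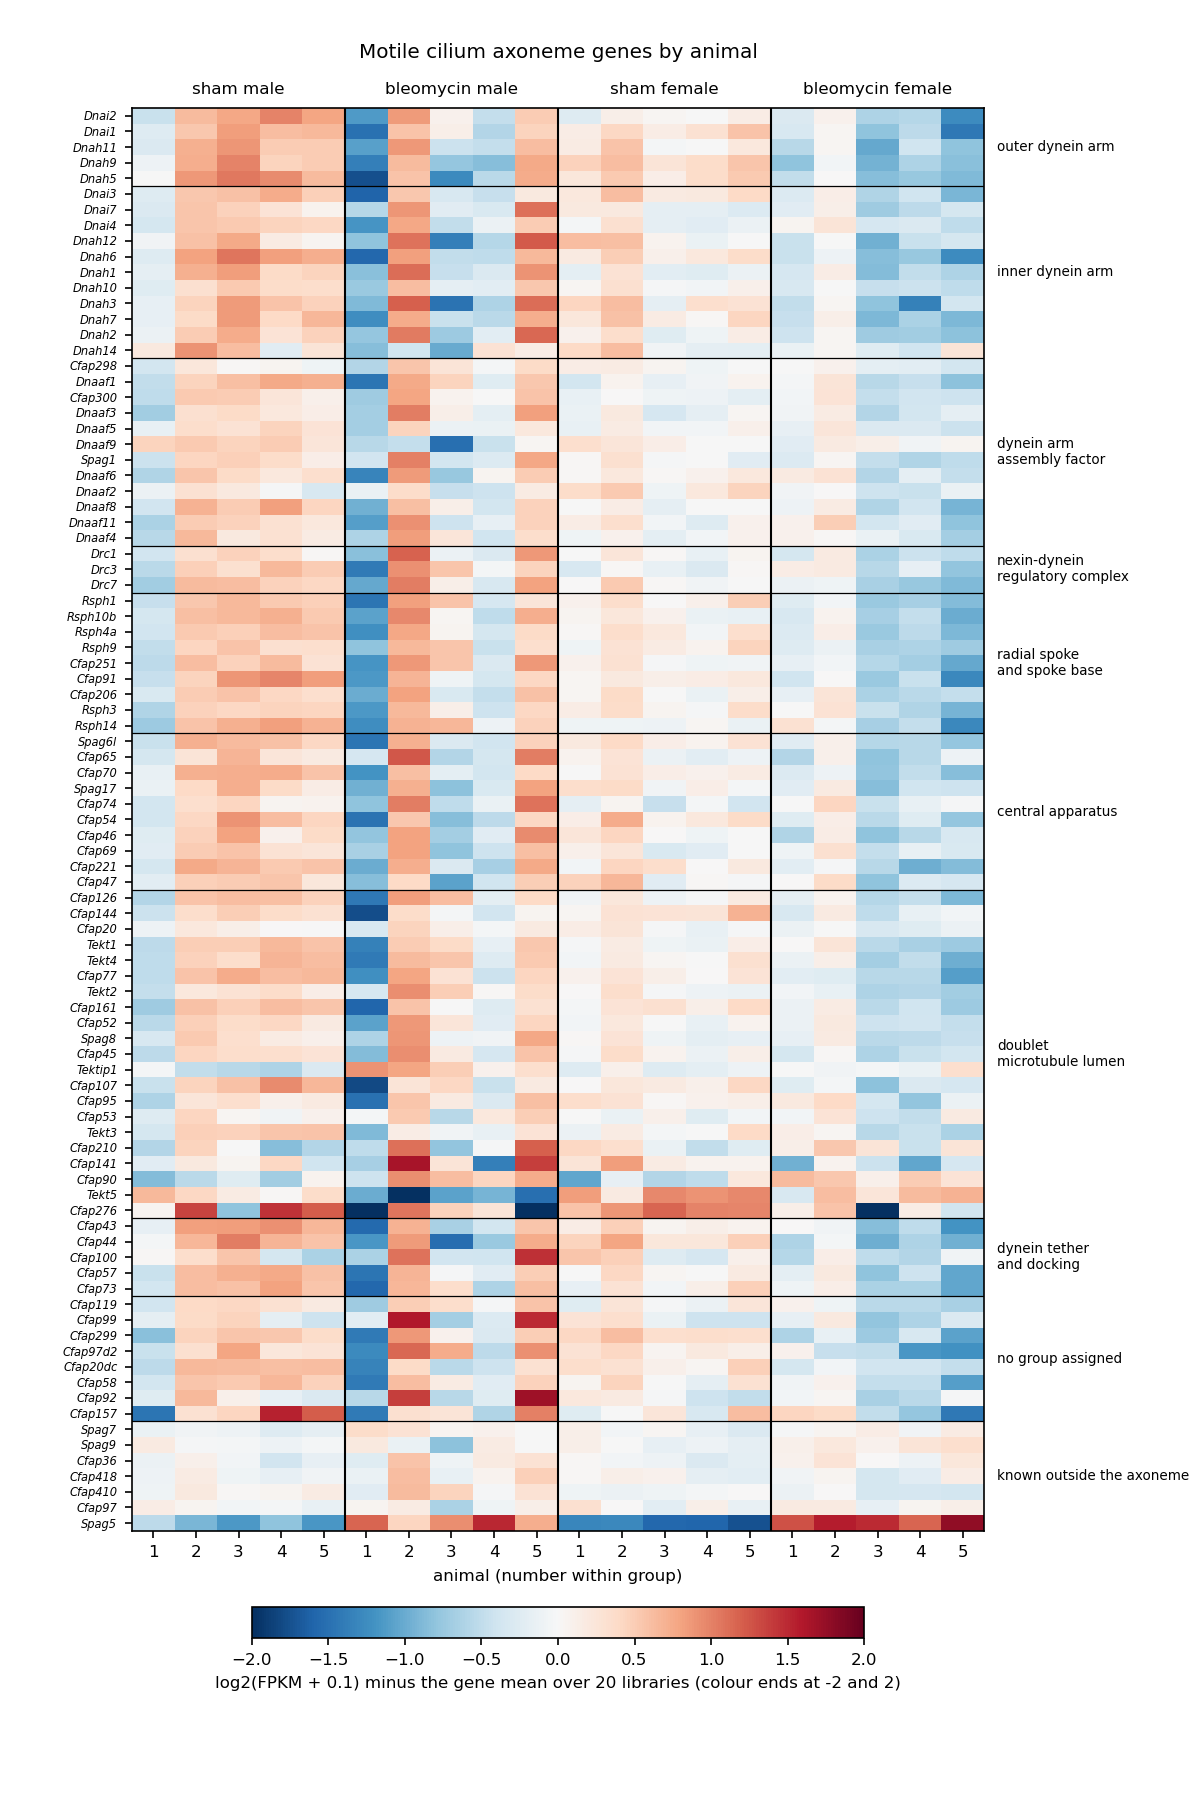
Levels of the 91 members (rows, grouped by their place in the axoneme) in the 20 animals (columns), as log2(FPKM + 0.1) minus the mean of the gene over all libraries. Most rows move together down the columns, from bleomycin male 1, which is low, to bleomycin male 2, which is high, and Tekt5, Tektip1 and Spag5 break the pattern.

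Members were then grouped by their place in the axoneme. The outer dynein arm, which supplies most of the beat's power, had the lowest median log2 fold change of the structures, -0.74 over 5 genes, of which 4 fell. The tethers and docking factors of the inner arms followed with -0.53 and 2 of 5, the central apparatus with -0.47 and 4 of 10, the inner dynein arms with -0.42 and 5 of 11, and the radial spokes and their base with -0.41 and 2 of 9. Proteins of the doublet lumen had a median of -0.25, with 5 of 21 falling and 2 rising, and dynein arm assembly factors one of -0.22, with 2 of 12 falling. The nexin-dynein regulatory complex, the link between neighbouring doublets, had a median of -0.14, and none of its 3 genes passed. Another 8 Cfap genes with no place assigned had a median of -0.41 and 2 falls, and 7 prefixed genes known outside the axoneme had one of 0.07, with 3 rises and no fall. Of all genes tested, 21.0% fell and 24.2% rose in this comparison. The falls among the radial spokes, the lumen, the assembly factors and the genes with no place assigned lie near that share. Differences between these groups were not tested.

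**Figure D2:**
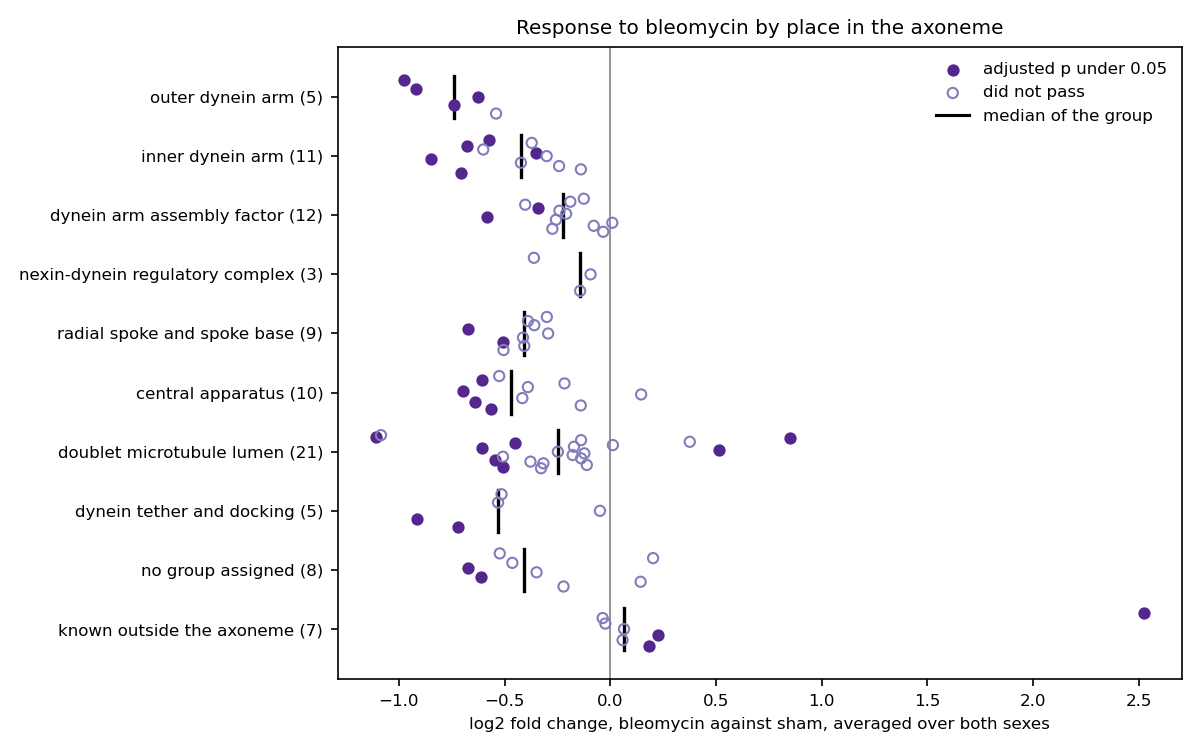
Log2 fold change of each member with bleomycin, averaged over both sexes, by place in the axoneme (number of genes in brackets); filled points passed an adjusted p of 0.05 and the bar marks the group median. All 5 outer arm genes lie below 0, and the single far point at 2.52 is Spag5, a spindle protein.

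Outer arm heavy chains are the motor subunits whose loss causes primary ciliary dyskinesia in people. Dnah5 (ENSRNOG00000048363, chromosome 2, 78937800 to 79254890 as the table gives it) measured 4.05, 7.49, 8.55, 7.89 and 6.36 FPKM in the sham males and 1.13, 6.07, 1.61, 2.77 and 6.88 in the males given bleomycin. In females the Dnah5 values were 4.79, 5.86, 4.44, 5.24 and 5.85 FPKM after sham treatment and 2.84, 4.09, 2.19, 2.35 and 2.16 after bleomycin. The male groups overlapped, because bleomycin males 2 and 5 lay within the sham range, while every bleomycin female lay below every sham female. Its log2 fold change was -0.97 ± 0.359 (SE, n = 5 per group) in males with an adjusted p of 0.0358, and -0.97 ± 0.359 in females with an adjusted p of 0.0588. Averaged over both sexes it fell by 0.97 ± 0.254 (adjusted p = 0.00423).

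Dnah9, the heavy chain paired with Dnah5 toward the ciliary tip, measured 4.59, 8.22, 9.92, 6.78 and 7.03 FPKM in the sham males and 1.84, 7.7001, 2.84, 2.69 and 8.42 in the males given bleomycin. In females the Dnah9 values were 6.78, 7.59, 5.91, 6.38 and 7.27 FPKM after sham treatment and 2.79, 4.75, 2.51, 3.18 and 2.73 after bleomycin. Again males 2 and 5 of the bleomycin group sat among the sham males, and the female groups did not overlap. Dnah9 fell in females, by 1.12 ± 0.322 (log2; adjusted p = 0.0168), and its male value was -0.71 ± 0.319 (adjusted p = 0.0803). Dnah11, the heavy chain nearer the base, had an averaged log2 fold change of -0.63 ± 0.212 (adjusted p = 0.0213), and the intermediate chain Dnai1 one of -0.74 ± 0.226 (adjusted p = 0.0117). Dnai2, the partner of Dnai1 in the arm, had -0.54 ± 0.222 and did not pass (adjusted p = 0.0546).

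Inner arms shape the bend rather than its frequency. Of their genes, Dnai3 fell by 0.70 ± 0.1998 with both sexes averaged (adjusted p = 0.0075), and Dnah6, Dnah7, Dnah10 and Dnah14 also fell, with log2 fold changes of -0.85, -0.68, -0.35 and -0.57. The intermediate chains Dnai4 and Dnai7 had -0.24 and -0.14 and did not pass. All 11 dynein heavy chains of both arms had negative values in males, in females and averaged, with medians of -0.49, -0.74 and -0.60. Heavy chain transcripts are very long. The 147 tested genes in the same range of apparent length (counts per FPKM), the 11 heavy chains among them, had medians of -0.26, -0.12 and -0.17 in the same comparisons. Dnah14, the member of lowest level, reached 0.5 FPKM in 9 of 20 libraries and its averaged fall was lost under 14 of at most 34 alternative settings.

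Dynein arm assembly factors are chaperones and scaffolds of the cytoplasm. The 3 of highest level, Cfap298, Dnaaf1 and Cfap300, had averaged log2 fold changes of -0.033, -0.27 and -0.078, and none of them passed. Dnaaf2, also called kintoun, fell in females by 0.55 (adjusted p = 0.0128), where its value in males was -0.13 ± 0.1501. Dnaaf9 is described with the sex comparison. In the regulatory complex between doublets, Drc1, Drc3 and Drc7 had -0.14, -0.093 and -0.36.

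Radial spokes carry signals from the central pair to the arms. Rsph1, a spoke head protein and the spoke gene of highest level, had a mean of 65.1 ± 16.7 FPKM (SD, n = 5) in sham males against 55.6 ± 27.7 with bleomycin, and of 57.9 ± 8.51 in sham females against 35.5 ± 8.86. Its averaged log2 fold change of -0.50 ± 0.219 did not pass (adjusted p = 0.0678), although the female groups did not overlap. Rsph4a, another head protein, fell by 0.51 ± 0.198 (adjusted p = 0.043), a call lost under 16 of at most 34 alternatives. Rsph10b had -0.41 ± 0.206 (adjusted p = 0.117). At the spoke base Cfap91 had -0.67 ± 0.213 and passed (adjusted p = 0.0146).

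In the central apparatus, 4 of 10 genes fell. Spag6l, an armadillo-repeat protein of the central pair, fell by 0.57 ± 0.204 (adjusted p = 0.0297), and Cfap70, a central apparatus protein in Chlamydomonas, by 0.64 ± 0.177 (adjusted p = 0.00633). The Spag6l call was lost under 8 alternatives, library totals among them. Cfap54 and Cfap221, which sit on one of the central microtubules in the same alga, fell by 0.70 and 0.60. Cfap65 had -0.14 ± 0.201 and Cfap47 -0.53 ± 0.217, and neither passed.

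Tethers hold an inner arm to its doublet, as known from Tetrahymena and Chlamydomonas. Cfap44, a tether protein, measured 23.6, 38.6, 49.3, 38.98 and 36.04 FPKM in the sham males and 10.8, 43.9, 8.42, 14.5 and 40.7 in the males given bleomycin. In females the Cfap44 values were 33.2, 41.8, 28.5, 28.3 and 33.9 FPKM after sham treatment and 15.7, 23.5, 12.2, 15.8 and 12.4 after bleomycin. Bleomycin males 1, 3 and 4 lay below every sham male and males 2 and 5 did not, while the female groups were apart. Cfap44 fell in females by 1.08 ± 0.351 (adjusted p = 0.0325), a call lost under 6 alternatives that each leave out 1 female library, and its male value was -0.74 ± 0.349 (adjusted p = 0.0947). Its partner Cfap43 fell by 0.72 ± 0.229 with both sexes averaged (adjusted p = 0.0152), whereas Cfap100, a dynein docking factor in Chlamydomonas, had -0.049 ± 0.235.

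Proteins of the doublet lumen went in both directions. The 3 of highest level were Cfap126, also called Flattop, at a mean of 67.3 FPKM, Cfap144 at 61.99 and Cfap20 at 46.2, and the first of these was the most abundant of all members. Cfap126 had an averaged log2 fold change of -0.33 ± 0.221 and Cfap20 one of -0.11 ± 0.0789, neither passing, and Cfap144 fell by 0.51 ± 0.193 (adjusted p = 0.0383, lost under 12 alternatives). Cfap77, Cfap107, Tekt3 and Tekt5 were the other lumen genes that fell. Tektip1 and Cfap90 rose.

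Cfap90 measured 1.29, 1.65, 2.04, 1.47 and 2.56 FPKM in the sham males and 1.797, 4.73, 3.77, 3.32 and 4.13 in the males given bleomycin. In females the Cfap90 values were 1.14, 2.16, 1.58, 1.68 and 2.83 FPKM after sham treatment and 3.84, 3.58, 2.63, 3.51 and 2.96 after bleomycin. The groups overlapped in both sexes, through bleomycin male 1 and through sham female 5. Its log2 fold change was 0.93 ± 0.283 in males (adjusted p = 0.0128), 0.77 ± 0.282 in females (adjusted p = 0.0572) and 0.85 ± 0.1997 averaged (adjusted p = 0.00188).

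Of the genes with no place assigned, Cfap20dc fell in males by 0.72 (adjusted p = 0.0319) and Cfap299 in females by 0.99 (adjusted p = 0.0306). The first call was lost under 9 alternatives and the second under 6. The more abundant Cfap119 and Cfap99 had averaged log2 fold changes of -0.22 and 0.14 and did not pass.

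A further 7 genes carry the prefixes but have a known role elsewhere. Spag5, or astrin, is a protein of the mitotic spindle. It measured 1.597, 1.18, 0.994, 1.29 and 0.988 FPKM in the sham males and 5.34, 3.18, 4.51, 6.83 and 3.904 in the males given bleomycin. In females the Spag5 values were 0.878, 0.891, 0.713, 0.7104 and 0.626 FPKM after sham treatment and 5.79, 7.12, 6.73, 5.31 and 8.22 after bleomycin. All 10 bleomycin libraries lay above all 10 sham libraries, as they did for 4.89% of all genes. Spag5 rose by 1.96 in males and 3.09 in females on the log2 scale, and all 7 mitosis genes looked at, among them Mki67 and Top2a, rose with both sexes averaged. Spag7 rose in males by 0.28 ± 0.0805 (adjusted p = 0.0103), Cfap36, a protein of primary cilia, rose with both sexes averaged by 0.22 ± 0.0794 (adjusted p = 0.0275), and the scaffold Spag9, Cfap97 and the photoreceptor cilium genes Cfap410 and Cfap418 had averaged values between -0.036 and 0.065. The Cfap36 call was lost under 5 alternatives, among them the fit without the libraries with Alb of at least 50 FPKM.

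Animals of the same group differed widely in these genes. The level of an animal was taken as the median, over the 84 members not known outside the axoneme, of its log2(FPKM + 0.1) minus the gene's mean. Sham males 1 to 5 stood at -0.37, 0.49, 0.52, 0.44 and 0.38, and bleomycin males at -1.04, 0.78, -0.10, -0.32 and 0.53. Sham females stood at 0.053, 0.30, -0.0021, -0.026 and 0.12, and bleomycin females at -0.17, 0.096, -0.58, -0.48 and -0.64. Bleomycin males thus spanned the whole range, with male 1 the lowest library for 53 of the 84 genes and male 2 the highest for 37, and bleomycin females overlapped sham females through female 2. The median within-group SD of log2(FPKM + 0.1) was 0.82 for these members and 0.37 for all genes in bleomycin males, 0.42 against 0.22 in sham males, 0.36 against 0.22 in bleomycin females and 0.19 against 0.17 in sham females.

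**Figure D3:**
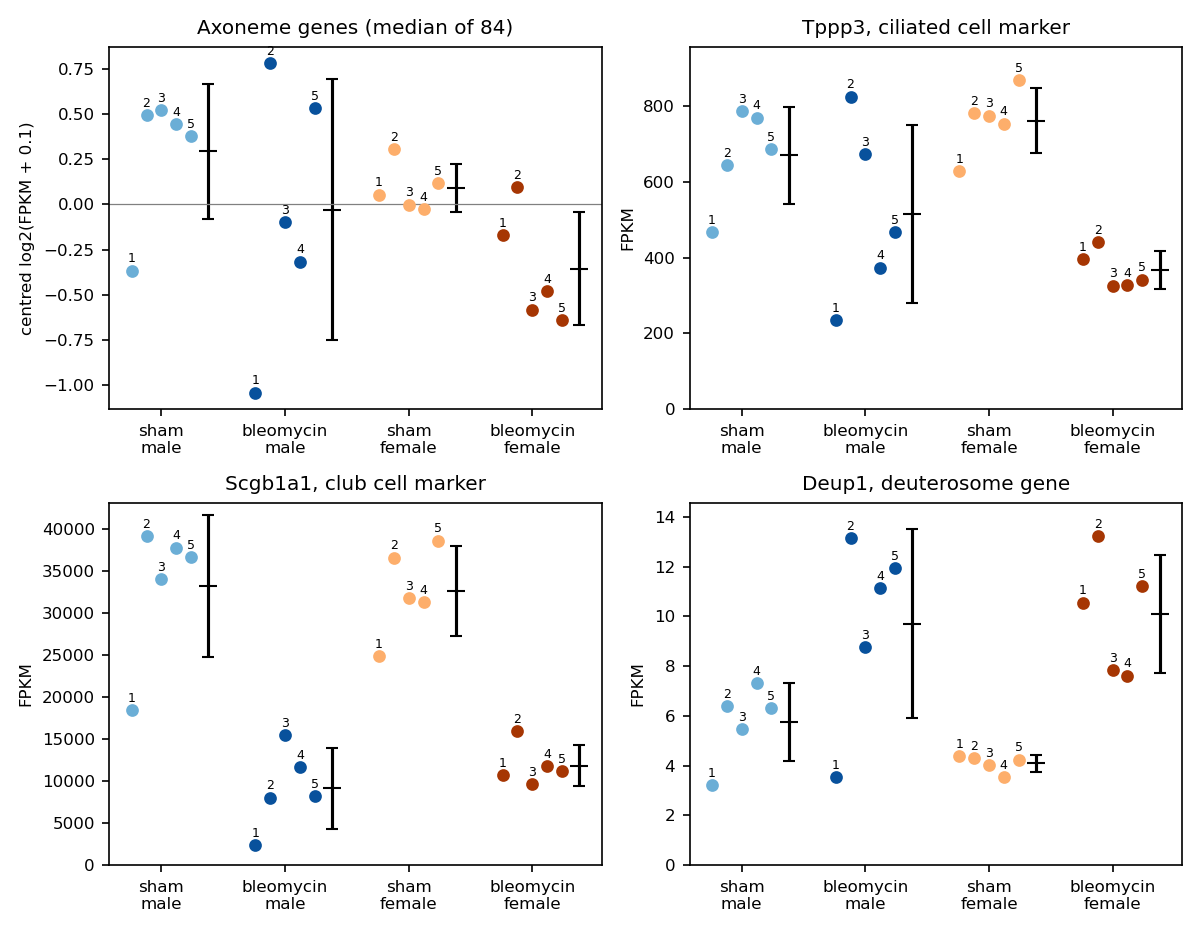
Each point is 1 animal (number within group beside it), with the group mean and SD (n = 5) to the right: the median level of the 84 axoneme genes, and the FPKM of Tppp3, Scgb1a1 and Deup1. Bleomycin males 2 and 5 are at the top of the axoneme panel, and all 10 bleomycin animals are below all 10 sham animals for Scgb1a1.

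Members rose and fell together from animal to animal. After removal of the group means, 49 of 91 members had a Pearson r of at least 0.9 with the median of the other axoneme members over the 20 libraries, and 67 had at least 0.8. Spag6l was the closest, with an r of 0.99, then Cfap70, Dnah6, Dnah10 and Cfap206, each with 0.98. The 9 below 0.5 were Cfap276, Dnah14, Dnaaf9, Cfap97, Spag7, Spag9, Tektip1, Spag5 and Tekt5, the last with -0.66. Tppp3 had an r of 0.83 and Ccdc40, a ruler of the axoneme's repeat, 0.99. Airway genes outside the cilium moved along too. The club and secretory markers ran from 0.25 (Cldn10) to 0.83 (Agr2), and the basal cell markers were at 0.73 (Krt5), 0.53 (Tp63) and -0.12 (Ngfr). Alveolar type 2 markers ran from -0.53 (Napsa) to -0.24 (Abca3). No share over all genes was taken, so the likeness is not shown to be particular to cilium genes. These values describe the libraries, since all genes of an animal share their library, its depth and its cells, and carry no test.

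In males, 6 members fell and 4 rose, or 6.59% and 4.4% of the members against 19.3% and 22.6% of all genes. The falls were Dnaaf9, Tekt5, Cfap20dc, Dnah14, Dnah5 and Cfap70, and the rises Spag5, Tektip1, Spag7 and Cfap90. Of at most 34 alternative settings, the male call was lost under 20 for Cfap70, 10 for Dnah14, 9 for Cfap20dc, 9 for Dnah5 and 1 for Spag7. With the limit on size added, 3 members passed against 12.7% of genes. The sham and bleomycin males did not overlap for 2 members that were lower, Dnaaf9 and Tekt5, against 9.98% of genes, and for 3 that were higher, Tektip1, Spag7 and Spag5, against 12.6%. The count of members passing was 19 without sham male 1, 17 without bleomycin male 2 and 16 without bleomycin male 5. It was 6 without sham male 2 or sham male 3. In these fits 17.1 to 19.6% of all genes fell and 20.1 to 22.8% rose. Without the 5 libraries with Alb of at least 50 FPKM, 25 members passed, with 21 falls against 14.6% of all genes in that fit. The median over the members went from -0.25 to -0.55. That fit also leaves out bleomycin males 2 and 5, which had the highest axoneme levels of their group.

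In females, 4 members fell, Dnah9, Cfap44, Cfap299 and Dnaaf2, and 1 rose, Spag5, against 8.38% and 13.2% of all genes. The limit on size left 3 members against 7.00% of genes. Mitochondrial transcripts took 4.43 to 5.61% of counts in bleomycin females and 5.605 to 7.41% in sham females, and their part in these differences was not tested. The female groups did not overlap for 16 members that were lower, or 17.58% of members against 8.77% of all genes, and for 1 that was higher, against 14.9%. Of the 16, the outer arm gave Dnai1, Dnah9 and Dnah5, the inner arm Dnai3 and Dnah6, the spokes Rsph1, Rsph9 and Cfap91, the lumen Cfap77 and Cfap107 and the tethers Cfap43 and Cfap44, with Drc7, Cfap70, Cfap299 and Cfap20dc making up the rest. The main model shares 1 estimate of spread per gene over all 4 groups, and fitted on the female libraries alone it called 39 falls and 3 rises, against 15.6% and 18.3% of all genes in that fit. Without bleomycin male 1, which is not in the female comparison but enters the shared spread, 22 members passed. Of these 20 fell, against 9.16% of all genes in that fit. Without sham male 1 or bleomycin female 2 there were 11, without bleomycin male 2 there were 9, and without bleomycin male 3 or 5 there were 8. Without sham female 2 or bleomycin female 1, 3 or 5 there were 3. Over these single-library fits 5.92 to 11.3% of all genes fell and 10.8 to 15.7% rose.

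**Figure D4:**
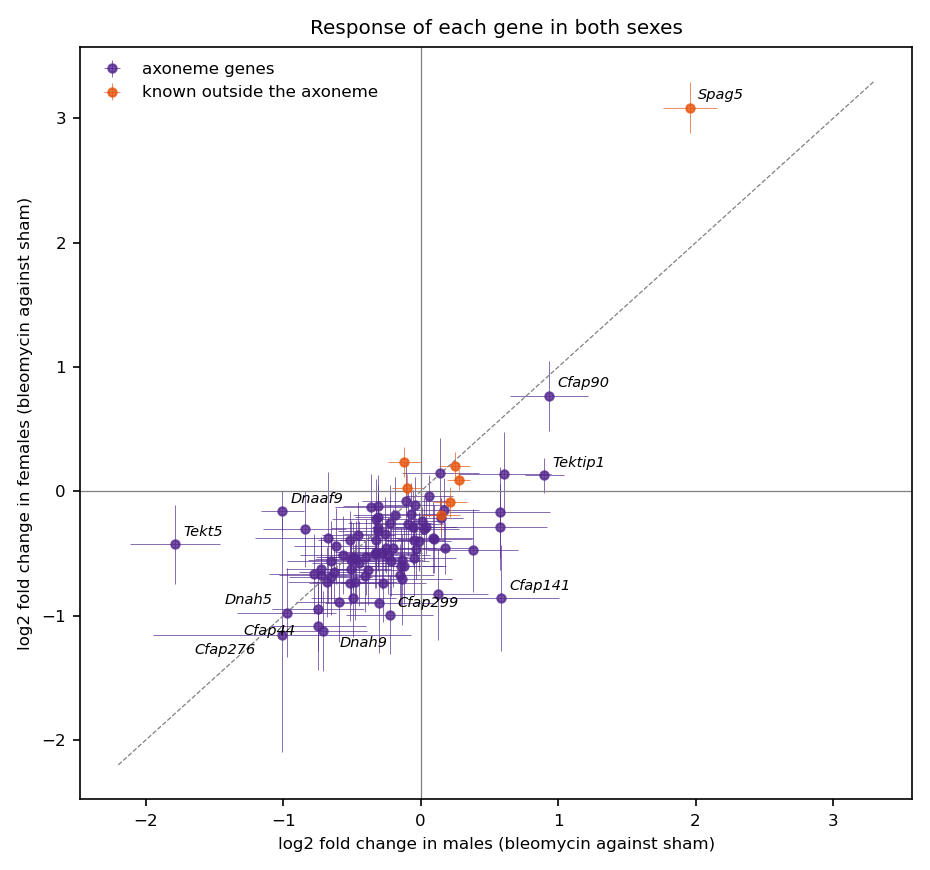
Log2 fold change with bleomycin in males (horizontal) and females (vertical) for each member, with standard errors (n = 5 per group); the dashed line marks equal change. Most axoneme genes lie in the lower left, Spag5 is far up on the right, and Tekt5 and Tektip1 lie off the line toward the male axis.

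Sham females and sham males did not differ detectably in any single member by edgeR's test. No member passed in edgeR's test in either direction, where 0.113% of all genes were higher and 0.409% lower in females, and 1 member passed an unadjusted p of 0.05. DESeq2 and limma-voom with sample weights each called 1 member lower in females, against 1.53% and 2.89% of all genes. The median difference, female minus male, was -0.20 over the members against 0.0008 over all genes. Of 91 members, 74 were lower in females, against 49.8% of all genes.

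Among bleomycin animals, females were lower than males for 83 of 91 members, against 52.11% of all genes. The median log2 difference was -0.42 against -0.02 for all genes. At the adjusted threshold 3 members were lower in females, Tektip1, Tekt2 and Cfap410, and 2 higher, Tekt5 and Dnaaf9, against 8.72% and 11.7% of all genes. The count moved with single libraries. Without bleomycin male 1, 39 members passed, 36 of them lower in females. In that fit 9.32% of all genes were lower and 11.5% higher. Without bleomycin male 4, 17 passed, 13 of them lower, against 13.4% of all genes lower and 17.4% higher. Without bleomycin male 3, 8 passed, 6 of them lower, against 6.89% and 9.86%. Without bleomycin male 2 or bleomycin female 4, 3 passed, 1 of them lower, where 5.12% and 4.58% of all genes were lower. Fitted on the 10 bleomycin libraries alone, no member passed by edgeR's test, and 0.0945% of all genes were then lower and 0.0882% higher in females. Without the libraries with Alb of at least 50 FPKM the median over the members was 0.01, but that fit also leaves out bleomycin males 2 and 5. These had the highest axoneme levels of their group. The mitochondrial share was 4.94 ± 0.443% (SD, n = 5) in bleomycin females and 7.63 ± 1.97% in bleomycin males. In the same comparison 4 of 11 ciliated cell markers were lower in females, Sntn, Capsl, Pifo and Dynlrb2, with summed levels of 484 to 695 FPKM in females and 341 to 1271 in males. So were the basal cell markers Tp63 and Ngfr, 2 of 3, with sums of 0.488 to 3.82 FPKM against 0.636 to 16.6. The fat gene Adipoq was lower in females too, the only call among 5 neighbouring organ genes tested. Its level was by far the highest in bleomycin male 5. The other bleomycin males, at 0.468 to 1.674 FPKM, overlapped the bleomycin females, at 0.034 to 1.298. Whether the Adipoq call holds without bleomycin male 5 was not tested. Slc34a2, 1 of 7 type 2 markers, was higher in females, a call lost under 11 alternatives, and the calls of Cfap410 and Tekt2 were lost under 7 and 4. The part of the mitochondrial share and of the basal and type 2 markers in these differences was not tested.

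The response itself differed between the sexes for 3 members, by the interaction term of the same model. Spag5 and Dnaaf9 had the higher value in females and Tektip1 the lower, against 3.65% and 2.04% of all genes. None of the 3 passed without the libraries with Alb of at least 50 FPKM, where 0.126% of all genes were higher and 0.0441% lower. None passed either without bleomycin female 2, sham female 5 or sham male 4. In those fits 1.35 to 1.40% of all genes were higher and 0.674 to 0.920% lower. Calls were also lost without bleomycin female 3 or 4, bleomycin male 2, sham female 2 or 4 or sham male 2 or 3. Each of these fits left 1 member. Leaving out sham female 3, sham male 1 or sham male 5 left 1 member in each direction. Leaving out bleomycin male 1 left 2 members, both with the higher value in females. Over these fits 1.42 to 3.37% of all genes were higher and 0.724 to 1.69% lower. Without bleomycin male 4, 5 members passed, against 11.7% of all genes higher and 7.20% lower in that fit.

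Dnaaf9 (ENSRNOG00000021237, chromosome 3, 117921620 to 118052630) is the counterpart of Shulin, which packages outer arms for transport in Tetrahymena. It measured 12.96, 13.7, 12.9, 13.6 and 11.3 FPKM in the sham males and 6.49, 6.797, 3.28, 6.99 and 9.801 in the males given bleomycin. In females the Dnaaf9 values were 12.1, 11.3, 10.4, 9.52 and 9.49 FPKM after sham treatment and 8.16, 10.8, 10.4, 9.11 and 9.85 after bleomycin. Every bleomycin male lay below every sham male, while the female groups overlapped. The log2 fold change was -1.01 ± 0.1596 in males (adjusted p = 8.59e-05) and -0.16 ± 0.158 in females (adjusted p = 0.523), a difference of 0.85 ± 0.224 (adjusted p = 0.0362) that was lost under 15 alternatives.

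Tektip1 (ENSRNOG00000039861, chromosome 7, 8345303 to 8347429) binds the bundle of tektin filaments in the lumen. It measured 11.2, 8.18, 7.83, 7.498 and 9.37 FPKM in the sham males and 21.5, 19.99, 16.2, 12.2 and 14.6 in the males given bleomycin. In females the Tektip1 values were 9.56, 12.4, 9.54, 10.04 and 10.7 FPKM after sham treatment and 11.4, 10.97, 11.2, 10.4 and 14.5 after bleomycin. All bleomycin males were above all sham males, and the female groups overlapped. Tektip1 rose in males by 0.90 ± 0.142 (adjusted p = 7.96e-05) and had 0.13 ± 0.141 in females (adjusted p = 0.557), with a difference in response of -0.77 ± 0.199 (adjusted p = 0.0352) that was lost under 13 alternatives.

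Tekt5 (ENSRNOG00000002571, chromosome 10, 5279893 to 5316619) is a tektin best known from sperm flagella. It measured 3.32, 2.805, 2.35, 2.11 and 2.6995 FPKM in the sham males and 0.998, 0.208, 0.936, 1.04 and 0.661 in the males given bleomycin. In females the Tekt5 values were 3.802, 2.36, 4.13, 3.96 and 4.11 FPKM after sham treatment and 1.64, 3.22, 2.48, 3.26 and 3.43 after bleomycin. Male groups were apart and female groups overlapped. Tekt5 fell in males by 1.79 ± 0.327 (adjusted p = 0.0003) and its female value was -0.43 ± 0.315 (adjusted p = 0.366). The difference in response of 1.36 ± 0.449 did not pass (adjusted p = 0.0697). The other tektins, Tekt1, Tekt2, Tekt3 and Tekt4, had male values between -0.51 and 0.18.

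**Figure D5:**
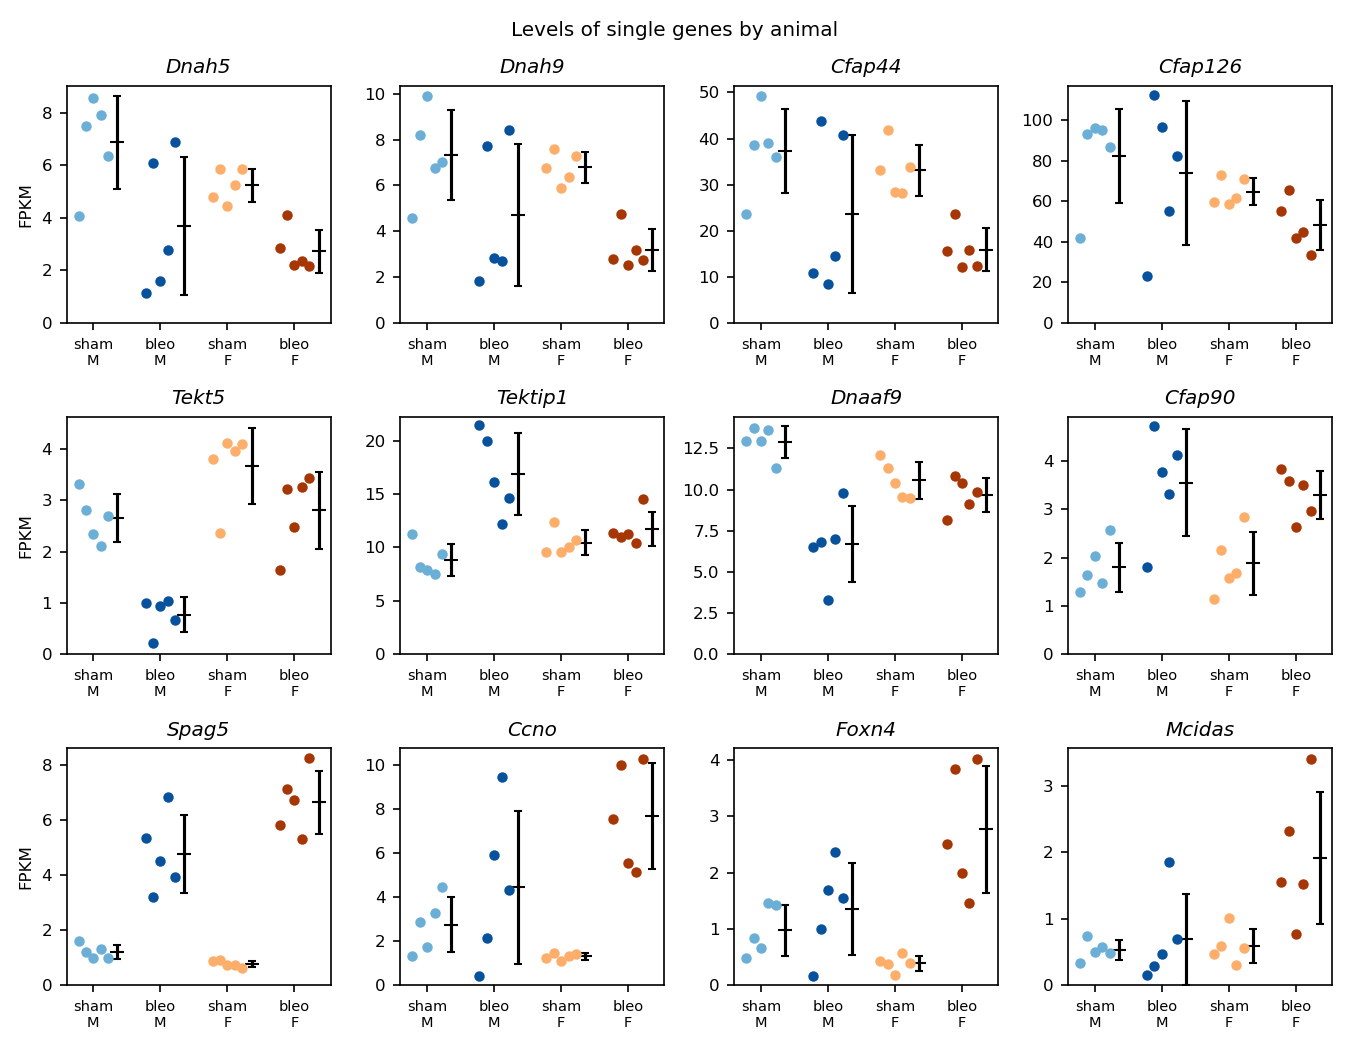
FPKM of 9 members and of the multiciliation genes Ccno, Foxn4 and Mcidas in each animal (M, male; F, female; bleo, bleomycin), with the group mean and SD (n = 5). Tekt5, Tektip1 and Dnaaf9 separate the male groups but not the female ones, and Ccno and Foxn4 separate the female groups.

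Regulators that make a cell multiciliated went in both directions. Of 11 tested, 4 rose and 2 fell with both sexes averaged, 4 rose and none fell in females, and 1 rose and 1 fell in males. Of all genes, 24.2% rose and 21.0% fell averaged, 13.2% and 8.38% in females, and 22.6% and 19.3% in males, so the falls and the male counts lie near or under the shares over all genes. Deup1, a scaffold of the deuterosomes on which extra basal bodies form, measured 3.21, 6.404, 5.46, 7.33 and 6.31 FPKM in the sham males and 3.53, 13.1, 8.77, 11.1 and 11.9 in the males given bleomycin. In females the Deup1 values were 4.37, 4.29, 4.01, 3.54 and 4.24 FPKM after sham treatment and 10.6, 13.2, 7.84, 7.62 and 11.2 after bleomycin. All bleomycin females exceeded all sham females, and bleomycin male 1 lay among the sham males. Deup1 rose by 1.27 ± 0.273 in females (adjusted p = 0.00223) and by 0.71 ± 0.2696 in males (adjusted p = 0.0412), the male call being lost under 14 alternatives.

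Ccno, a cyclin needed to multiply basal bodies, measured 1.33, 2.86, 1.73, 3.27 and 4.47 FPKM in the sham males and 0.416, 2.14, 5.91, 9.43 and 4.32 in the males given bleomycin. In females the Ccno values were 1.23, 1.47, 1.08, 1.31 and 1.3999 FPKM after sham treatment and 7.53, 10.01, 5.53, 5.14 and 10.3 after bleomycin. The female groups stood well apart and the male groups overlapped. Ccno rose in females by 2.52 ± 0.54 (adjusted p = 0.00214), as did Foxn4, a transcription factor of multiciliated cells in Xenopus, by 2.78 ± 0.533 (adjusted p = 0.000823), and Mcidas, the multicilin gene, by 1.65 ± 0.538 (adjusted p = 0.0337). Their male values were 0.70, 0.45 and 0.38, and for none of the 11 regulators did the difference between the sexes pass. Rfx3 and Tp73, transcription factors of the cilium programme, fell with both sexes averaged, by 0.58 and 0.68. Mcidas, Tp73 and Rfx3 were singled out after their values were seen.

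Axoneme genes under other names were looked at beside the members. Of 36 tested, 11 fell and none rose with both sexes averaged, where 21.0% of all genes fell and 24.2% rose, and the median log2 fold change was -0.22. Ccdc40 fell by 0.81 (adjusted p = 0.00597), and the giant central pair gene Hydin by 0.84 (adjusted p = 0.0058). Intraflagellar transport, which carries parts into cilia of all kinds, gave 5 falls and no rise among 26 genes, with a median of -0.19, a share of falls near the 21.0% of all genes. Of 11 ciliated cell markers, 3 fell, Tppp3, Cfap144 and Cdhr3, the second being a member as well. Tppp3 fell in females by 1.09 (adjusted p = 0.00376) and had -0.42 ± 0.248 in males (adjusted p = 0.181).

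Markers of neighbouring airway and alveolar cells moved in the same libraries. Scgb1a1, the secretoglobin of club cells, had a mean of 33182 ± 8473 FPKM in sham males against 9121 ± 4849.7 with bleomycin, and of 32612 ± 5343 in sham females against 11830.5 ± 2411. Its log2 fold change with both sexes averaged was -1.69 (adjusted p = 2.79e-05). Of 12 club and secretory markers, 4 fell and 3 rose with both sexes averaged, where 21.0% of all genes fell and 24.2% rose. Their log2 fold changes ran from -2.43 to 2.94, with a median of -0.22. Their summed level ranged from 19157 to 45045 FPKM in sham males against 2472 to 17708 with bleomycin, and from 26685 to 41837 in sham females against 11372 to 17567. Scgb1a1 made up most of this sum, with 18407 of the 19157 FPKM in sham male 1 and 2335 of the 2472 in bleomycin male 1. The sum therefore does not describe the other markers. None of 3 basal cell markers passed with both sexes averaged. Their sum stayed between 0.488 and 16.6 FPKM over all libraries, with Krt5 listed at 0 in bleomycin male 1. Of 7 alveolar type 2 markers, 4 fell and none rose, Sftpc among them, with sums from 12138 to 15632 FPKM in sham males against 3479 to 13748 with bleomycin, and from 14388 to 17959 in sham females against 9392 to 15585. The summed level of 6 genes of liver, muscle, fat and heart ranged from 28.4 to 369 FPKM in sham males against 16.6 to 239 with bleomycin, and from 15.99 to 91.2 in sham females against 12.4 to 30.9. The part of these cells and tissues in the members' values was not tested. The fits without the Alb libraries do not test it. They also leave out bleomycin males 2 and 5, which had the highest axoneme levels of all 20 libraries (0.78 and 0.53), so the 2 cannot be told apart.

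Some members share their span with another gene, and the use of strand by the counter is not given in the sources used here. The table places 31 members over another row, 10 of them on the same strand and 23 on the opposite one. Spag7 shares 6156 bases with Pfn1 and Spag5 shares 2342 with Sdf2, both on the same strand, and Dnai3 shares 40164 bases with Mcoln3 on the opposite strand. Tektip1 shares 116 with Mfsd12. Values of these genes are uncertain to that extent.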

How the data were processed

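Poly-A RNA of 20 whole lungs was sequenced as stranded paired-end libraries, with HISAT2 alignment to the genome of rat and StringTie quantification, per the labels' protocols. The labels name an Ensembl release and a rat assembly that do not belong together, so the build of the printed coordinates is uncertain. The deposited table holds 2 units per gene and library, per the file headers. The FPKM values were made by the authors with StringTie, per the labels. The deposited counts are whole numbers, and how they were made is not given in the sources used here. Multiples of 4 are in excess (7103 values of 4, 3459 of 3), and the relation of counts to read pairs was not tested.

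Tested were the 15875 of 23799 genes that reached 0.5 FPKM in 5 or more libraries. edgeR 4.0.16 in R 4.3.3 was run on the counts with TMM factors and robust quasi-likelihood tests, in 1 model with a mean for each of the 4 groups, and p-values were Benjamini-Hochberg adjusted over all genes tested. Where no tool is named, an adjusted p is edgeR's. The value after ± is the SE for a log2 fold change, taken as its size over the square root of the quasi-likelihood F, and the SD for FPKM. The script was tested on simulated data. Each library is a separate animal, per the labels. Same-numbered animals of different groups deviated together at r above 0.1 in 8 of 20 pairs and not in the rest. The numbers were not used as pairs, and whether they mark pairs was not tested.

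Alternatives used DESeq2 1.42.0, limma 3.58.1 without voom and with voom plus sample weights, other scalings and filters, only the groups compared, and fewer libraries. Sample weights let libraries that depart from their group count less. Named were the 3 members of highest mean FPKM in each place of the axoneme, up to 5 passing members per direction and comparison, members known outside the axoneme and those nearest the limit, and from each other list up to 3 genes of smallest p. Other genes were named after their values were seen. The members and lists were chosen with earlier results of these data known. No gene sequences are printed.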

Additional observations from a re-analysis of the deposited data

Results flagged for a closer look

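Single animals stood apart from the other 4 of their group for 19 gene levels and for the median level of the axoneme genes, by the gap to the nearest animal over the group's range (limit 0.71). Of 188 groups looked at, 20 were marked. Chance would mark about 5%, or 1 in 20, if the groups were independent. They are not, since the same animals recur and the genes move together, so the 2 shares cannot be compared. Most marks fell on sham male 1 and sham female 2. Sham male 1 was low for Dnai4 (10.4 FPKM), Drc7 (8.07), Rsph1 (35.8), Rsph10b (22.8), Rsph4a (18.8), Cfap70 (15.4), Cfap126 (41.6), Cfap144 (43.5), Cfap299 (5.89) and Cfap20dc (3.36), and high for Spag9 (22.6). Its median level over the 84 axoneme genes, -0.37 on the centred log2 scale, was marked too. Tppp3 stood at 468 FPKM in that animal and Scgb1a1 at 18407, both the lowest of the sham males. Sham female 2 was high for Drc7 (18.9 FPKM), Tekt2 (33.1), Cfap43 (47.2) and Cfap299 (16.2) and low for Tekt5 (2.36). Bleomycin female 5 was high for Tektip1 (14.5 FPKM), bleomycin female 2 for Cfap20dc (4.70) and sham male 2 for Cfap418 (14.4). The cause of these gaps was not tested.

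The response to bleomycin differed between the sexes by the interaction term of the model for 3 members. The female minus male difference was 0.85 for Dnaaf9, -0.77 for Tektip1 and 1.13 for Spag5 on the log2 scale.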

How the results depend on the processing

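For bleomycin against sham with both sexes averaged, the count of 31 passing members stayed within 1.5 times under every alternative run, and leaving out 1 library gave 22 to 42. In males the main count of 10 went to 6 with library totals, 5 with only the groups compared, 25 without the Alb libraries and 6 to 19 without 1 library. In females the main count of 5 went to 14 by DESeq2 and 34 by limma-voom with sample weights. It was 42 with only the groups compared, 12 without the Alb libraries and 3 to 22 without 1 library. By DESeq2, by limma-voom, with only the groups compared and without the Alb libraries, falls made up 12, 31, 39 and 11 of these. The shares of all genes that fell in those fits were 11.2%, 18.8%, 15.6% and 7.95%. For females against males, the sham count of 0 went to 1 by DESeq2, by limma-voom with sample weights and without the Alb libraries. It stayed at 0 without 1 library. In bleomycin animals the count of 5 went to 11 by DESeq2 and 9 by limma-voom with sample weights. Those fits called 12.3% and 10.2% of all genes lower in females and 14.2% and 15.0% higher. The count was 0 with only the groups compared, 2 without the Alb libraries and 3 to 39 without 1 library. The difference in response gave 3 members, 0 without the Alb libraries and 0 to 5 without 1 library. In the fit without the Alb libraries 0.126% of all genes were higher and 0.0441% lower. With the replicate number as a block, 17 members passed in males and 10 in females, of which 13 and 8 fell. In that fit 20.3% of all genes fell in males and 8.81% in females, and 21.8% and 13.3% rose. Same-numbered animals deviated together at r above 0.1 in 8 of 20 pairs, with r from -0.14 to 0.43. Animals of different numbers were not compared, so these values cannot decide whether the numbers mark pairs. Of 3381 pairs of a named gene result and a setting, 3126 kept direction and side of the threshold, 253 lost the call, 2 gained one and 0 reversed. The cause of these shifts was not tested. Dnah14, the member of lowest level, had 224 to 1222 counts per library, and the effect of depth was not tested.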
